A study of Mus musculus with 18 samples.

Results

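The comparison described here set mouse embryonic fibroblasts labelled Ago2-/- and treated with tunicamycin against cells of the same label treated with the solvent dimethyl sulfoxide (DMSO). Mouse embryonic fibroblasts are connective tissue cells grown from embryos, and Ago2 encodes the Argonaute protein that cuts RNA in complex with small interfering RNAs and microRNAs. The cells were a gift by the study's methods, and its reporting summary names a different laboratory as their source. By that summary they were not authenticated, and the Ago2-/- cells had been tested for loss of the Ago2 protein on a western blot. The deleted exon and the number of clones are not stated in the paper or the labels. By the study's methods treated cells had been exposed for 6 h, with tunicamycin at 3 µg/ml, whereas the growth protocol in the labels names thapsigargin alone, for all samples. The sequencing methods call the control cells untreated, whereas the labels and the study's figure legend name DMSO. Total RNA had been extracted, and 3 libraries per group entered the deposited table. The series held 18 libraries in 6 groups, since the cells labelled Ago2+/+ and a thapsigargin arm (500 nM, an inhibitor of the calcium pump of the endoplasmic reticulum) were sequenced as well. The table gives 1 pooled expression value per group, as FPKM, fragments scaled for transcript length and library size, so the spread between the 3 libraries is unknown, no test was possible, and every value below is a single number without an error. The depth behind these values is unknown too.

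The rows of this pair of groups covered all 51499 loci of the table. A ratio of tunicamycin over DMSO was formed for the 11738 loci that were above 0 in both groups and reached a mean of at least 1 FPKM over both. Of the others, 28041 were listed at 0 in both groups, 2500 were above 0 only under tunicamycin, 2260 only under DMSO, and 6960 were above 0 in both but below that mean. A locus was called higher or lower where the groups differed by at least 2-fold. By this rule 1363 loci were higher under tunicamycin (11.6% of those with a ratio) and 1230 were lower (10.5%), which together is 22.1%. The median log2 ratio was 0.00, and the quartiles were -0.46 and 0.48. A further 74 loci were listed at 0 under DMSO with at least 2 FPKM under tunicamycin, and 70 the other way round. These shares are the background against which the gene lists below should be read.

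**Figure D1:**
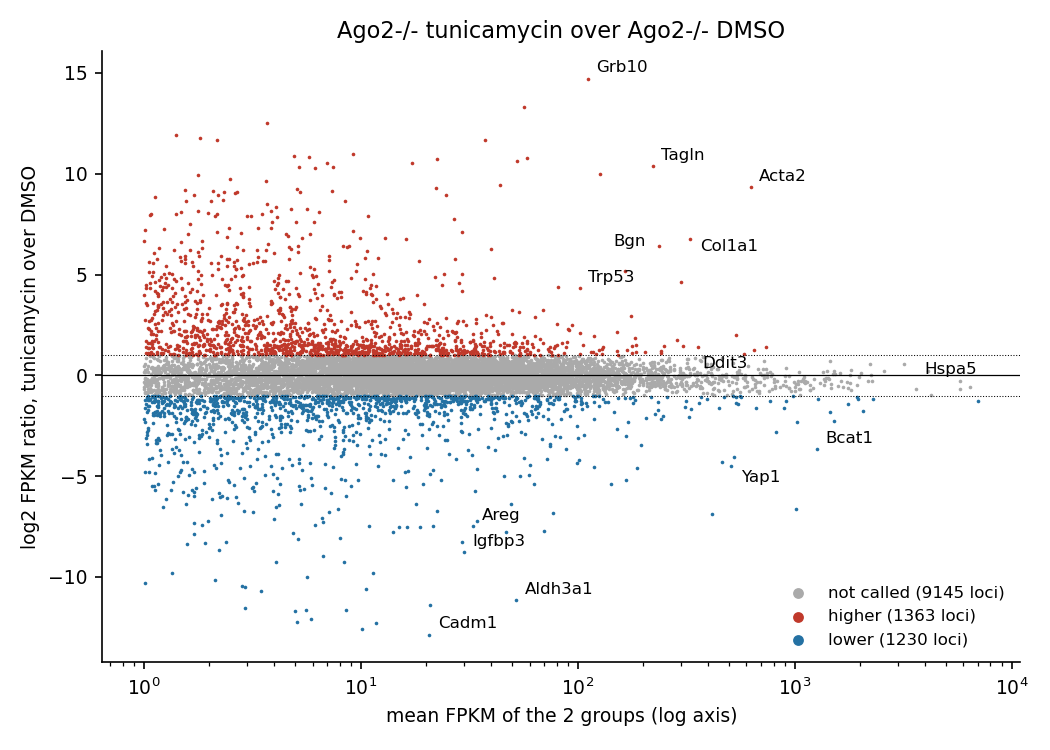
Each point is 1 of the 11738 loci, with the mean FPKM of the groups Ago2-/- DMSO and Ago2-/- tunicamycin on the x axis (log axis) and the log2 ratio of tunicamycin over DMSO on the y axis; dotted lines mark 2-fold. The 1363 higher and 1230 lower loci reach far from 0 at all but the highest levels, where Hspa5 lies at -0.58.

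Several values went against the labels, and they touch every result below. Ago2 itself (chromosome 15, 73090392 to 73184840, GRCm38) was at 5.61 FPKM for the label Ago2-/- with DMSO, at 15.5 for Ago2-/- with tunicamycin and at 20.7 for Ago2-/- with thapsigargin. For the label Ago2+/+ it was at 22.1 with DMSO, 5.75 with tunicamycin and 17.0 with thapsigargin. Thus the level did not follow the genotype label, although reads from outside a deleted part would check nothing. Genes of the Y chromosome did not follow it either. Ddx3y, which encodes an RNA helicase, was listed at 0 in Ago2-/- DMSO and at 24.7 FPKM in Ago2-/- tunicamycin, and Eif2s3y, a subunit of translation initiation factor 2, at 0 and 30.3. Both were also listed at 0 in 3 of the other groups, and reached 23.3 and 32.3 in Ago2+/+ thapsigargin. The locus of Xist, the RNA that silences an X chromosome in female cells, was at 0.0105 FPKM with DMSO and 0.00612 with tunicamycin in this comparison, but at 33.5 in the thapsigargin group of the same genotype label and at 46.6 in Ago2+/+ DMSO. So neither group of the comparison expressed Xist, and one of them lacked the Y-linked transcripts that the other carried.

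Across all loci the groups fell into 3 close pairs that cross the labels. Between Ago2-/- DMSO and Ago2+/+ tunicamycin, 1.00% of loci differed by at least 2-fold. Between Ago2-/- tunicamycin and Ago2+/+ thapsigargin this was 1.37%, and 2.90% separated the Ago2-/- thapsigargin group from Ago2+/+ DMSO. The remaining 12 pairs of groups differed at 16.2% to 22.1% of loci, and the comparison described here had the highest share. Of the 1363 loci called higher, 92.2% had a level in Ago2+/+ tunicamycin within 2-fold of that in Ago2-/- DMSO, and 96.1% a level in Ago2+/+ thapsigargin within 2-fold of that in Ago2-/- tunicamycin. For the 1230 lower loci these shares were 96.2% and 91.2%. GEO's labels also conflict within 4 of the 18 libraries, 1 of them in the DMSO group used here, where the title and the genotype entry differ. Treatment, genotype and origin of the cells cannot be told apart in these pooled values, and the group names below are the labels only.

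The cells expressed part of the fibroblast programme. Vim, the intermediate filament protein vimentin, had 2580 FPKM under DMSO and 952 under tunicamycin, and Prrx1, a mesenchymal transcription factor, 42.4 and 29.5. Thy1, a surface marker of many fibroblasts, was listed at 0 in both groups, and Col1a1 had only 5.97 FPKM under DMSO against 651 under tunicamycin. Of the 8 fibroblast markers with a locus of their own, 6 passed the filter, of which 3 were higher and 1 was lower. Most markers of other cells were low. The summed level of 6 endothelial markers was 0.453 FPKM under DMSO and 0.539 under tunicamycin, that of 6 macrophage markers 1.24 and 1.36, with Tyrobp and Adgre1 at 0 in both. Of the 8 epithelial markers Krt19, a keratin, was higher (0.395 against 11.7 FPKM), while Krt5 was at 0.00985 and 0 FPKM and Epcam at 0.0338 and 0.0977. Of the muscle markers Myf5, a myogenic transcription factor, had 11.8 FPKM under DMSO and was listed at 0 under tunicamycin, whereas Myod1 was at 0.0118 and 0. Among the 5 neural markers Sox2 was at 5.86 and 0.00399 FPKM and Map2 at 0.00909 and 18.5, while Gfap was at or below 0.00634 and Nes (nestin), also made by other growing cells, had 56.6 and 43.0. Among the 5 adipocyte markers Pparg had 0.177 and 3.08 FPKM and Plin1 was at 0 in both; among the 8 cartilage and bone markers Sox9 was lower (6.16 against 1.35), Runx2 had 21.3 and 11.0, and Ibsp was at 0 in both. Fewer cells of a type and less RNA per cell cannot be told apart in bulk samples, and the part of other cell types in the results was not tested.

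Tunicamycin blocks the first step of N-glycosylation, the transfer of N-acetylglucosamine phosphate to dolichol phosphate by Dpagt1. Secretory proteins that lack their glycans misfold in the endoplasmic reticulum (ER), and 3 sensors in its membrane answer. Eif2ak3 (PERK) slows translation and lets Atf4 and Ddit3 (CHOP) be made, Ern1 (IRE1) splices the Xbp1 mRNA, and Atf6 is cut to release a transcription factor. Together these factors raise chaperones, glycosylation enzymes and degradation factors in most cells, and a gene of the first rank, Hspa5, encodes the chaperone BiP that holds the sensors inactive.

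The ER stress response element is the site through which ATF6 and XBP1 act on chaperone genes. It reads CCAAT, then any 9 bases, then CCACG, and was searched on both strands in the 250 bases before each annotated start in RefSeq promoters of GRCm38.p6. It was present in 0.113% of the 32851 promoters and in those of 6 of the 11 ER chaperone genes with a promoter in the table (Calr, Canx, Creld2, Dnajc3, Hsp90b1 and Hspa5). The stretches around the matches are shown for Hspa5, Calr, Creld2 and Canx because these genes carry the chaperone values that follow; capitals mark the match, which lies on the opposite strand in Calr and Creld2, and each is written 5′ to 3′ in the direction of its gene.
Hspa5, chr2:34772000-34772068, plus strand: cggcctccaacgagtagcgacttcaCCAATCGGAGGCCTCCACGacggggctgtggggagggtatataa
Calr, chr8:84847050-84847118, minus strand: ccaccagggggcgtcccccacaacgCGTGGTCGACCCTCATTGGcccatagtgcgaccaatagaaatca
Creld2, chr15:88819495-88819563, plus strand: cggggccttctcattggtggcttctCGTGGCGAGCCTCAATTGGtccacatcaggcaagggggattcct
Canx, chr11:50325775-50325843, minus strand: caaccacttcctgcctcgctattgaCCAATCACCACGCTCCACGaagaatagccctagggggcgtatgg
A match describes letters and not use of the site. The match ends 46 bases before the start of Hspa5 and 143 before that of Calr.

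None of the ER chaperones differed by 2-fold. All 12 with a locus of their own passed the filter, 0 were higher and 0 lower, 10 had a ratio above 1, and their median log2 ratio was 0.28. Hspa5 (chromosome 2, 34771970 to 34777547) was among the most abundant mRNAs, and its level was lower under tunicamycin, at 5155 FPKM against 7682 under DMSO, a ratio of 0.67 short of the 2-fold rule. Its log2 ratio of -0.58 became -0.17 when centred on the median of chromosome 2. With thapsigargin Hspa5 had 3677 FPKM under the same genotype label, and under Ago2+/+ it had 4808 with DMSO, 6746 with tunicamycin and 5367 with thapsigargin. The DMSO group of this comparison therefore had the highest Hspa5 level of all 6. Calr (calreticulin, a lectin chaperone for glycoproteins) had 1546 and 1681 FPKM, Canx (calnexin, its membrane-bound relative) 334 and 377, and Creld2, a secreted ER stress marker, 321 and 467. Dnajc3, a cochaperone of BiP, had the largest ratio of the list, 67.2 against 118 FPKM (1.75-fold). Serpinh1, the chaperone of collagen, had 544 and 901 FPKM. The 5 chaperones with the element that passed the filter had a median log2 ratio of 0.18 and ranged from -0.58 to 0.81. The 5 others whose promoters were searched had a median of 0.30.

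**Figure D2:**
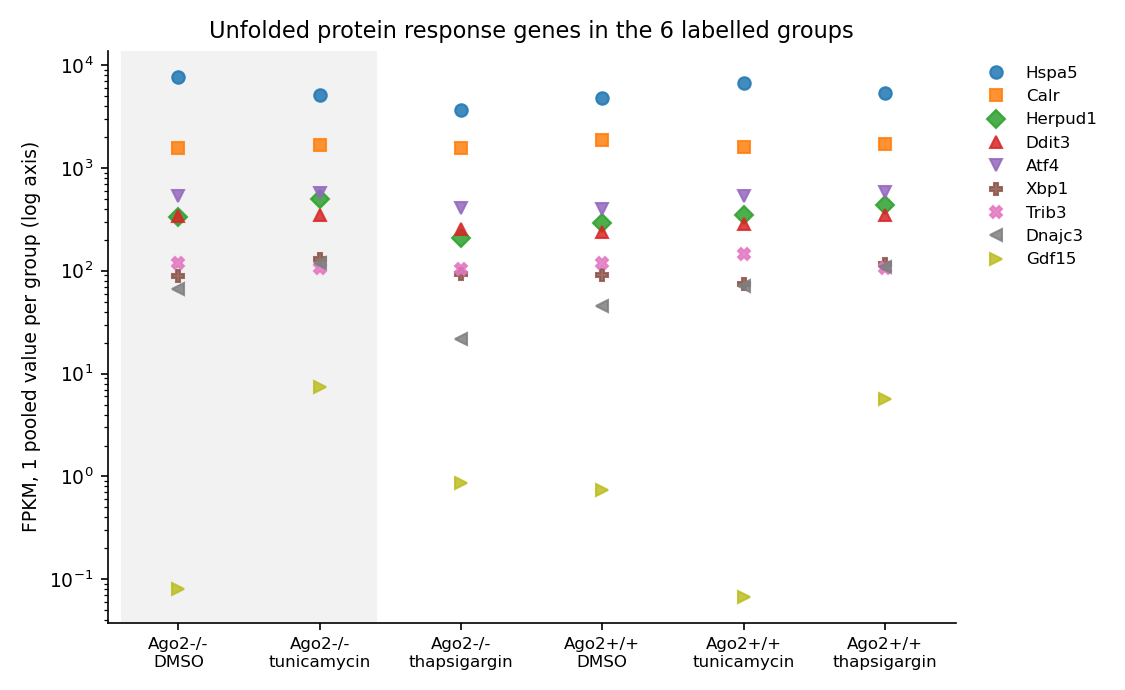
FPKM (log axis) of 9 unfolded protein response genes in the 6 labelled groups, 1 pooled value per group, with the comparison described here shaded. Hspa5 lies between 3677 and 7682 FPKM in every group, and only Gdf15 spans more than 10-fold.

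The sensors themselves differed in both directions. Of 11 sensor and transcription factor genes that passed, 4 were higher and 2 lower, against a background of 11.6% and 10.5%, and the median log2 ratio of 0.11 fell to 0.00 when ratios were centred on each chromosome. Eif2ak3 was higher, at 9.29 FPKM under DMSO and 20.8 under tunicamycin. Ern1 was lower, at 20.8 against 9.41, and Atf6 was lower, at 66.6 against 30.2. The calls of Eif2ak3 and Atf6 were lost with that centring. Atf6 is the last of 5 neighbouring loci on chromosome 1 that were all lower, from Uhmk1 onwards. Relatives of Atf6 that are also activated by cleavage were higher, namely Creb3 (16.2 and 39.3 FPKM), Creb3l2 (9.23 and 26.4) and Creb3l1, a factor of secretory cells and bone, with 0.988 and 53.3 FPKM. Xbp1 had 88.4 and 130 FPKM, and Atf4 had 532 and 575, neither past 2-fold. Since XBP1 and ATF4 are controlled by splicing and translation, gene-level FPKM does not show their activity.

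Several mRNAs downstream of PERK were high in both groups. Ddit3 had 339 FPKM under DMSO and 349 under tunicamycin, and between 237 and 345 in the other 4 groups. Trib3, a pseudokinase induced by CHOP, had 119 and 106 FPKM, Chac1, a glutathione-degrading enzyme, 82.3 and 71.8, and Ppp1r15a (GADD34), which restores translation, 88.1 and 99.0. Of 16 PERK, ATF4 and CHOP targets that passed, 3 were higher (18.75%) and 2 lower (12.5%), with a median log2 ratio of 0.27. Over all loci these shares were 11.6% and 10.5%. The higher ones were Gdf15, a stress cytokine (0.0801 FPKM under DMSO and 7.41 under tunicamycin), Fgf21, a stress hormone (1.62 and 9.83), and Vldlr, a lipoprotein receptor (3.82 and 28.2). The lower ones were Stc2, a secreted glycoprotein (14.9 against 5.83 FPKM), and the transcription factor Cebpb (43.0 against 20.2). Gdf15 was likewise low in Ago2+/+ tunicamycin (0.0678 FPKM) and near the higher value in Ago2+/+ thapsigargin (5.67).

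Genes of amino acid supply, another output of ATF4, were near equal. Of 17 that passed, 1 was higher and 2 were lower, and the median log2 ratio of 0.01 changed sign to -0.04 with chromosome centring. Asns, asparagine synthetase, had 188 and 283 FPKM, and Phgdh, the first enzyme of serine synthesis, was lower at 748 against 367. Of 18 cytosolic tRNA synthetases, 0 were higher and 2 lower, Dars (112 against 50.1 FPKM) and Wars (161 against 78.3), with a median of -0.27.

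The pathway that tunicamycin blocks was shifted by less than 2-fold for most members. Dpagt1 itself had 18.1 FPKM under DMSO and 29.2 under tunicamycin (1.61-fold). Of 32 genes of N-glycan assembly, transfer and trimming that passed, 2 were higher (6.25%, against 11.6% of all loci) and 0 were lower. A ratio above 1 was found for 23, and the median log2 ratio was 0.33. Both higher members act in making UDP-N-acetylglucosamine, the sugar donor of the blocked step. Gfpt1, the entry enzyme of that route, had 29.6 and 79.2 FPKM (2.68-fold), and Pgm3, a phosphoglucomutase further along it, 8.63 and 21.1 (2.44-fold). The call of Pgm3 was lost when ratios were centred on each chromosome. Subunits of the oligosaccharyltransferase, which moves the glycan to proteins, were mixed: Stt3a had 179 and 306 FPKM, Rpn1 197 and 328, Dad1 49.9 and 89.2, but Rpn2 226 and 226 and Tusc3 52.8 and 48.2.

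Genes of the translocon and of vesicle coats lay higher more evenly. Of 26 that passed, 24 had a ratio above 1, 4 were higher (15.4%, against 11.6% of all loci) and 0 lower, and the median log2 ratio was 0.49. Kdelr3, a receptor that returns ER proteins from the Golgi, had 15.2 and 112 FPKM, a 7.40-fold ratio. Sec23a, of the coat that leaves the ER, had 19.4 and 47.5, Sar1a, the GTPase that starts this coat, 74.3 and 176, and Sec61a1, the channel of the translocon, 154 and 329. Each of these had a level in Ago2-/- thapsigargin nearer to the DMSO value; Kdelr3 had 20.8 FPKM there. With chromosome centring the calls of Sar1a and Sec61a1 were lost, and 3 genes of the list were then higher. Of 15 genes of ER-associated degradation, 12 had a ratio above 1 and 2 were called higher, the mannosidase-like lectin Edem1 (34.4 and 74.5 FPKM) and the lectin Os9 (19.8 and 45.5), and both calls were lost when ratios were centred on each chromosome. Herpud1, an ER membrane protein of this pathway, had 334 and 492 FPKM. Of 11 disulfide isomerases and oxidases, 2 were higher, Pdia5 (15.2 and 48.3) and Ero1lb (6.13 and 16.0).

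mRNAs described as cut by IRE1 were not lower under tunicamycin. Of 4 with a locus of their own, 3 were higher and 0 lower. Sparc, a collagen-binding matrix protein, had 214 and 863 FPKM, Scara3, a scavenger receptor, 1.54 and 7.58, Pdgfrb, the receptor of platelet-derived growth factor B, 7.84 and 17.9, and Hgsnat, a lysosomal acetyltransferase, 8.79 and 14.0. Bloc1s1, the best known of them, shares its locus with another gene and had 29.4 and 43.1.

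Death genes linked to ER stress differed in both directions. Of 12 that passed, 3 were higher and 5 lower, with a median log2 ratio of -0.28. Casp12, a caspase found at the ER, had 1.14 FPKM under DMSO and 7.42 under tunicamycin. Bcl2l1 (Bcl-xL), which protects against death, was lower at 49.5 against 12.1, and the death-promoting Bcl2l11 (Bim) and Bid were lower as well, at 11.2 against 4.63 and at 33.6 against 16.1.

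Genes of contraction and of the extracellular matrix were mostly higher under tunicamycin. Of 16 contractile genes that passed, 11 were higher (68.8%) and 1 was lower, with a median log2 ratio of 1.47. Acta2, smooth muscle actin and the usual mark of myofibroblasts, had 1.92 FPKM in Ago2-/- DMSO and 1252 in Ago2-/- tunicamycin. Tagln, an actin-binding protein, had 0.333 and 444, Myl9, a myosin light chain, 0.251 and 252, and Cnn1 (calponin), 0.0663 and 105. These 4 genes stood near 0 in one group and among abundant mRNAs in the other. In the remaining groups Acta2 had 3.77 FPKM in Ago2-/- thapsigargin, and under Ago2+/+ 0.644 with DMSO, 1.75 with tunicamycin and 1644 with thapsigargin, so the high level occurred in 2 of the 6 groups, each under a different agent. Genes of contraction that all fibroblasts use had smaller ratios: Tpm1 386 and 912 FPKM, Actn1 102 and 205, Cald1 332 and 446, Vcl 85 and 114. Synpo2, a Z-disc protein, was the lower one, at 2.51 against 0.198.

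The CArG box, at which serum response factor binds, was found on both strands in 1.47% of all promoters over the same 250 bases and in those of 4 of 17 contractile genes, Cnn2, Ldb3, Myl9 and Vcl. The stretches of Myl9 and Cnn2 are shown because both were called higher, with the box in capitals.
Myl9, chr2:156775278-156775337, plus strand: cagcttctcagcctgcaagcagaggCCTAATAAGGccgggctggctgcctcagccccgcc
Cnn2, chr10:79988519-79988578, plus strand: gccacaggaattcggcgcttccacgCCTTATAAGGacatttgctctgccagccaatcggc
Srf itself had 16.3 and 23.4 FPKM and its cofactor Mkl1 14.9 and 27.2, both short of 2-fold. Cnn2 had 95.0 and 260 FPKM. Of 9 genes for serum response factor, its cofactors and immediate targets, 1 was higher, Ctgf, a matricellular protein (13.3 and 125 FPKM), and 1 lower, Fos (8.59 against 3.72).

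Collagen chains made up the list with the largest median, 2.72, among those with 10 or more members that passed. Of 14 that passed, 8 were higher and 3 lower. Among the higher ones, Col1a1 had 5.97 FPKM under DMSO and 651 under tunicamycin (109-fold), Col1a2 23.7 and 577, Col5a2 8.94 and 320, and Col12a1, which coats fibrils, 3.01 and 55.3. The beaded filament chains Col6a1 and Col6a2 had 12.8 and 77.6, and 3.41 and 30.1. Col4a5, a basement membrane chain, was lower (45.5 against 14.8), as were Col18a1 (32.4 against 6.13) and the short-chain Col8a1 (68.9 against 11.1), while the basement membrane chains Col4a1 and Col4a2, at 54.0 against 32.6 and 39.3 against 20.6, did not reach 2-fold. Col11a1 was listed at 0 under DMSO and had 21.2 FPKM under tunicamycin.

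Enzymes that modify collagen were mostly higher. Of 15 that passed, 11 were higher and 1 was lower, with a median log2 ratio of 1.45. Among them were the prolyl hydroxylases P4ha1 (27.2 and 75.8 FPKM) and P4ha2 (18.3 and 49.5), the lysyl hydroxylase Plod1 (11.0 and 30.4), the crosslinking oxidases Lox (42.2 and 114) and Loxl1 (9.32 and 70.4), and the proteinase Adamts2, which trims the N-terminal propeptide (0.111 and 9.21). P3h2, which hydroxylates collagen IV, was the lower one, at 20.0 against 1.74.

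Other matrix genes gave a similar count. Of 18 matrix glycoproteins and elastic fibre genes, 12 were higher and 1 lower (median log2 ratio 2.0). Fbln5, which assembles elastic fibres, had 0.0110 FPKM under DMSO and 113 under tunicamycin, Tnc (tenascin C) 9.42 and 90.1, Fbn1 (fibrillin) 10.1 and 40.2, and Postn (periostin) 0.0169 and 10.1. Fn1, fibronectin, had 326 and 600 and was not called. Vcan, the proteoglycan versican, was lower at 52.1 against 2.98. Spp1 (osteopontin), which shares its locus with another gene and was left out of the counts, had 2015 FPKM under DMSO and 20.1 under tunicamycin. Of 11 small leucine-rich proteoglycans with a locus of their own only 3 passed the filter, and these 3 were higher, with Bgn (biglycan) at 5.52 and 469 FPKM. A filter on the mean lets in members that are high in only 1 group. Without the filter 6 were higher and 1 lower. Among 16 matrix proteases and inhibitors, 8 were higher and 3 lower: Mmp2, a gelatinase, had 0.420 and 23.5, the aggrecanase Adamts5 0.0892 and 11.6, and Mmp14, which activates MMP2, 30.8 and 81.4, whereas Timp1, an inhibitor, was lower at 336 against 134 and Plaur, the urokinase receptor, at 103 against 28.2. Integrins and laminins split, with 4 higher and 5 lower of 16. The collagen receptor Itga11 had 0.00921 and 7.27, and the fibronectin receptor Itga5 21.6 and 51.9. The laminin receptor subunit Itga6 was lower, at 76.8 against 8.89. Of 8 caveolae genes 1 was higher, Cavin2 (1.03 and 78.9), and 1 lower, Cavin4 (12.6 against 5.11).

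**Figure D3:**
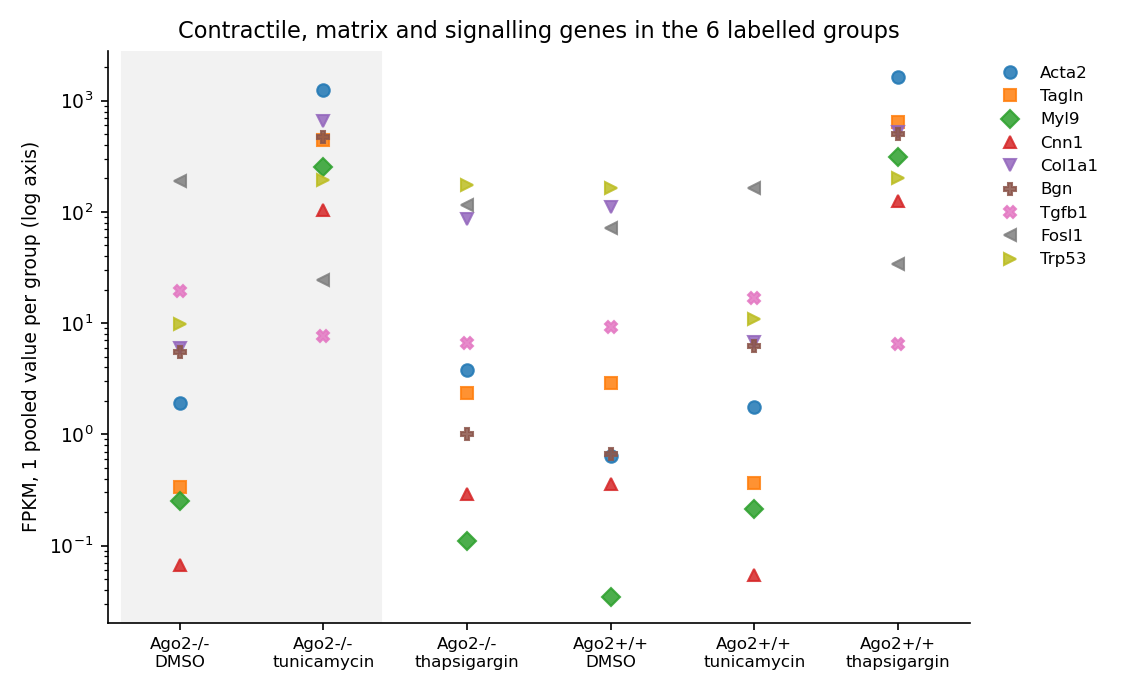
FPKM (log axis) of contractile, matrix and signalling genes in the 6 labelled groups, 1 pooled value per group, with the comparison described here shaded. Acta2, Tagln, Myl9, Cnn1, Col1a1 and Bgn are high in Ago2-/- tunicamycin and Ago2+/+ thapsigargin, and Trp53 is low in Ago2-/- DMSO and Ago2+/+ tunicamycin.

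Interferon-stimulated genes lay higher under tunicamycin at low levels. These genes answer type I interferon and viral RNA, and many carry a response element that holds GAAA, any 2 bases and GAAA again. The element was present on either strand in 2.98% of all promoters over the 250 bases and in those of 12 of 20 interferon effector genes. Those of Isg15, Irgm1 and Gbp2 are shown as examples, Isg15 and Irgm1 because they were called higher; capitals mark the match, overlapping matches are joined, and that of Gbp2 lies on the opposite strand.
Isg15, chr4:156200850-156200921, minus strand: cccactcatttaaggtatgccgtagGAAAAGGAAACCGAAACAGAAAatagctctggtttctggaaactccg
Irgm1, chr11:48871421-48871475, minus strand: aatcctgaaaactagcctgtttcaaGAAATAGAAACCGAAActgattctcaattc
Gbp2, chr3:142620579-142620638, plus strand: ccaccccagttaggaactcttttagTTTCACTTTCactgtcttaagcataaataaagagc
Of 25 effector genes with a locus of their own only 9 passed the filter, of which 5 were higher and 0 lower. Isg15, a ubiquitin-like modifier, had 1.43 FPKM under DMSO and 5.56 under tunicamycin, Irgm1, a GTPase, 2.74 and 15.4, Bst2 (tetherin), 11.4 and 31.6, Parp9 0.423 and 4.97, and Xaf1 0.944 and 2.37. Trim25, a ubiquitin ligase, was listed at 0 under DMSO and at 7.24. The highest Isg15 levels of the series lay elsewhere, at 21.5 FPKM in Ago2-/- thapsigargin and 39.2 in Ago2+/+ DMSO. With a mean of at least 5 FPKM required, 2 effectors remained higher.

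Sensors of RNA and the antigen presentation genes gave the same direction. Of 11 sensors and signalling genes 3 were higher and 0 lower, Ifih1 (MDA5) with 0.0586 and 2.06 FPKM, Ddx58 (RIG-I) with 6.01 and 16.5, and Stat2 with 2.48 and 8.07. Of 11 class I presentation genes 6 were higher and 0 lower, among them the heavy chains H2-K1 (25.2 and 76.1) and H2-D1 (27.5 and 88.9), the peptide transporter Tap1 (0.111 and 4.28) and the immunoproteasome subunit Psmb8 (0.00538 and 3.10). B2m, the light chain, had 230 and 257. With a mean of at least 5 FPKM required, 2 presentation genes remained higher. The summed level of the presentation genes, 395 and 602 FPKM, was higher still in Ago2-/- thapsigargin (639) and Ago2+/+ DMSO (742). Of 12 chemokines and cytokines, 3 were higher and 5 lower. Cxcl10, induced by interferon, had 0.581 and 14.2 FPKM, and Ccl7 2.08 and 24.5. Csf1, the macrophage growth factor, was lower at 258 against 101, as was Cxcl1 at 20.2 against 5.60. In Ago2+/+ tunicamycin against Ago2+/+ DMSO 0 of 13 effectors were higher and 9 were lower.

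Growth factor genes differed in both directions. Areg, an epidermal growth factor receptor ligand, had 65.8 FPKM under DMSO and 0.364 under tunicamycin, and the related Btc and Tgfa had 4.41 and 0.0683, and 3.00 and 0.154. The receptor Egfr was higher (5.18 and 14.6), and so was the ligand Ereg (0.127 and 3.07). Of the 8 family members that passed, 2 were higher and 3 lower. Of 7 genes of the insulin-like growth factor axis 1 was higher, Igf1 (0.150 and 3.51), and 4 were lower, all of them binding proteins: Igfbp3 (59.7 against 0.138), Igfbp4 (18.6 against 8.35), Igfbp6 (30.8 against 1.11) and Igfbp7 (107 against 40.8). Of 10 PDGF and FGF genes 2 were higher and 4 lower, with Pdgfc at 32.7 against 8.75 and Fgf7 at 91 against 31.6. Of 19 TGF-beta and BMP genes 4 were higher and 4 lower. The ligands of the first family parted, since Tgfb1 was lower (19.6 against 7.62 FPKM) and Tgfb2 (3.27 and 19) and Tgfb3 (3.06 and 19.5) were higher. Id1 and Id2, which answer BMP signals, were lower, at 128 against 24.0 and 47.6 against 16.0, while Id3 had 98.2 and 111. Of 9 genes on a list of Wnt ligands, receptors and antagonists that passed, 4 were higher and 0 lower, with Wnt5a at 0.0276 and 6.99, but with a mean of at least 5 FPKM 0 were called, and without the filter 7 were higher and 2 lower. The ligand Wnt7b, which the list does not hold, was lower, at 23.6 against 0.00467.

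Transcription factors that mark the body position and lineage of fibroblasts differed between the groups. Of 17 Hox genes that passed, 3 were higher and 2 lower, and a further 8 were listed at 0 in one group. Genes of the Hoxc cluster were at 0 or close to it under tunicamycin. Under DMSO Hoxc8 had 25.6 FPKM, Hoxc6 17.2 and Hoxc9 2.09, and all 3 were listed at 0 under tunicamycin. Hoxc4 had 5.69 and 0.00409. Hoxa9 (0.865 and 9.16), Hoxb9 (31.6 and 76.1) and Hoxb8 (6.66 and 14.2) were higher. Of 21 mesenchymal factors 4 were higher and 8 lower. Tbx5, of the forelimb, was listed at 0 and at 8.77 FPKM. Foxf2 had 14.0 and 1.26, Runx1 16.9 and 4.13, Snai2 46.9 and 22.2, and Gata6 1.25 and 8.36. Twist1 (13.5 and 11.6) and Zeb1 (16.9 and 18.7) were near equal.

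Imprinted genes, which are expressed from 1 parental copy, were split, with 3 higher and 3 lower of 9. Grb10, an adaptor that restrains insulin and growth factor receptors (chromosome 11, 11930508 to 12038683), had the largest ratio of all named loci, with 0.00824 FPKM under DMSO and 223 under tunicamycin. It was at or below 0.176 in 3 of the other groups and at 204.5 in Ago2+/+ thapsigargin. Ndn had 11.3 and 0.0112, Peg3 2.13 and 0.0469 and Plagl1 0.302 and 7.65, and Cdkn1c, a Cdk inhibitor, was listed at 0 under DMSO and at 11.0 under tunicamycin.

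Few genes of the cell cycle itself were called. Of 25 cell cycle and replication genes 1 was higher and 1 lower: the D-type cyclins Ccnd2 (15.1 and 70.1 FPKM) and Ccnd1 (193 against 10.6). Mki67, a proliferation marker, had 56.2 and 64.7, and Pcna 288 and 217. Of 13 genes of the p53 pathway and Cdk inhibitors 5 were higher and 2 lower. Trp53 itself (chromosome 11, 69580359 to 69591873) had 9.79 FPKM under DMSO and 195 under tunicamycin (19.9-fold). It had 176 in Ago2-/- thapsigargin, and under Ago2+/+ 165 with DMSO, 10.95 with tunicamycin and 202 with thapsigargin, which sets the DMSO group of this comparison and Ago2+/+ tunicamycin apart from the other 4. The p53 target Cdkn1a (p21) was lower, at 30.3 against 10.2, while Gadd45a (34.0 and 90.0), Sesn1 (4.24 and 8.80), Trp53inp1 (0.446 and 3.26) and the inhibitor Cdkn2c (5.16 and 36.2) were higher. Mdm2, another p53 target, had 20.5 and 37.6 and Cdkn2a 279 and 208, neither called.

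Immediate early genes were lower in the main. Of 17 that passed, 9 were lower (52.9%) and 1 was higher, with a median log2 ratio of -1.13. Fosl1, a partner of Jun, had 190 FPKM under DMSO and 24.3 under tunicamycin, Dusp6, a phosphatase induced by ERK, 40.6 and 7.09, and Ier3 138 and 30.5. Jun had 15.0 and 20.4 and Myc 140 and 75.7, neither called, and Klf6 was the higher one (18.9 and 41.0). The NRF2 list behaved alike, with 8 of 16 lower, 1 higher and a median of -0.96. Nfe2l2, which encodes NRF2, had 97.5 and 36.8 FPKM, Gclc, which starts glutathione synthesis, 60.5 and 20.0, Srxn1 81.6 and 17.0, Hmox1 256 and 111, and the glutathione transferase Gsta4 88.8 and 2.76. Nqo1 was the higher one, at 5.12 and 10.6. In Ago2+/+ tunicamycin against Ago2+/+ DMSO 10 of 16 NRF2 genes were higher and 0 lower.

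Lists of housekeeping processes ranged from no called gene to a share above that of all loci. Of 29 proteasome subunits and 23 genes of sterol and fatty acid synthesis, 0 were called in either direction, with medians of -0.24 and 0.09; the latter became -0.16 with chromosome centring. Of 52 ribosomal protein genes 0 were higher and 3 lower, and the median was -0.34. Of 14 heat shock genes 1 was higher and 3 were lower (21.4%, against 10.5% of all loci), the latter being Cryab and the mitochondrial chaperonins Hspd1 (776 against 300 FPKM) and Hspe1 (499 against 240). Glycolysis had 1 higher and 2 lower of 15, with Eno1, enolase, at 1351 against 444 and the lactate exporter Slc16a3 at 0.129 and 18.2. Of 21 lysosomal genes 4 were higher and 0 lower, Ctsh, Lgmn, Man2b2 and Psap (114 and 256). Of 12 complement genes with a locus of their own only 3 passed, of which 2 were higher, both under 5 FPKM. Without the filter 5 were higher and 1 lower. Of 4 noncoding RNAs 0 were higher and 2 lower, Neat1, the scaffold of paraspeckles (360 against 33.0), and Malat1 (138 against 57.5).

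**Figure D4:**
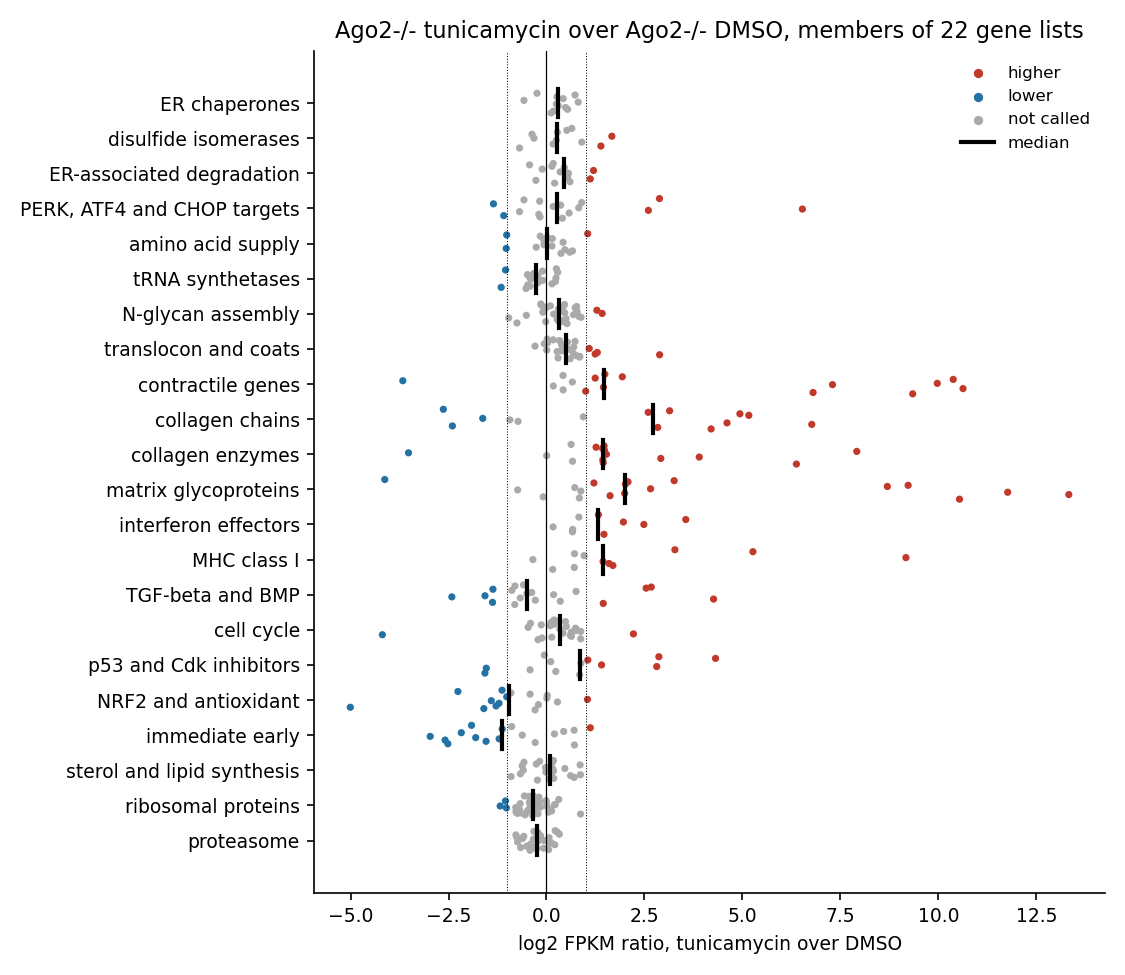
The log2 ratio of tunicamycin over DMSO of each member that passed the filter, in 22 gene lists; colours give the 2-fold call, dotted lines mark 2-fold and black bars the list medians. ER chaperones, sterol synthesis and proteasome genes lie within 2-fold, whereas contractile genes and collagen chains reach medians of 1.47 and 2.72.

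The silencing machinery held 1 called gene, Ago2. Ago1 had 10.1 and 14.9 FPKM, Ago3 7.31 and 7.34, Dicer1, which cuts microRNA precursors, 32.7 and 17.5, and Drosha, which acts before it and shares its locus, 42.7 and 35.1. The 3 mRNAs that the study followed further were all below 1 FPKM in both groups and so had no ratio: C1rl, a complement protease relative, had 0.161 and 0.785, the receptor kinase Mertk 0.596 and 0.991, and Nov (CCN3), a matricellular protein, 0.0615 and 0.869. In Ago2+/+ cells C1rl had 1.19 under DMSO and 0.267 under tunicamycin, Mertk 2.53 and 0.782, and Nov 2.45 and 0.0906. Their reference mRNA Rpl19 shares its locus and had 1475 and 888.

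Among loci with 1 gene name, at least 20 FPKM in the higher group and a value above 0 in both, the 15 with the largest ratios for tunicamycin were Grb10, Fbln5, Tgfb1i1, Fhl1, Cnn1, Cd34, Tagln, Myl9, Ptn, Acta2, Slc43a3, Epb41l3, P3h3, Nid2 and Lxn. Tgfb1i1, a focal adhesion protein, had 0.0230 and 74.6 FPKM, Fhl1, a LIM protein of muscle, 0.0672 and 117, the progenitor marker Cd34 0.02305 and 34.5, and the growth factor Ptn 0.126 and 87.3. The basement membrane protein Nid2 had 0.244 and 53.5. Of these 15, 14 had a level in Ago2+/+ thapsigargin within 2-fold of Ago2-/- tunicamycin. The 15 with the largest ratios for DMSO were Cadm1, Wdr49, Wnt7b, Fgfbp1, Aldh3a1, Slc16a13, Trim54, Igfbp3, Prl2c2, Cp, Sigirr, Areg, Il18rap, Tigit and Afap1l2. The adhesion molecule Cadm1 had 41.5 and 0.00556 FPKM, the aldehyde dehydrogenase Aldh3a1 104 and 0.0455, the copper protein Cp (ceruloplasmin) 140 and 0.652, and Prl2c2 (proliferin) 92.8 and 0.421. Of these 15, 14 had a level in Ago2+/+ tunicamycin within 2-fold of Ago2-/- DMSO. The exception was Afap1l2, an adaptor of Src, which had 152 FPKM with DMSO and 1.33 with tunicamycin in the compared groups, and 3.92 in Ago2+/+ tunicamycin.

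By the difference in FPKM the 10 largest in favour of tunicamycin were Acta2, Lgals1, Myl6, Sparc, Col1a1, Col1a2, Tpm1, Bgn, Tagln and Tmsb10. Lgals1, a galectin, had 1794 and 2637 FPKM, a ratio of 1.47, and Myl6 differed by 2.68-fold (402 and 1075). Among the 10 largest in favour of DMSO were Hspa5, Bcat1, Vim, Dcun1d5, Yap1, Eno1, Hsp90ab1, S100a6 and Eif5a. Of these Bcat1, a branched-chain aminotransferase, had 2347 FPKM under DMSO and 184 under tunicamycin, Dcun1d5, a cofactor of cullin neddylation, 989 and 59.5, and Yap1, the transcriptional coactivator of the Hippo pathway, 973 and 43.3. Each of these 3 was high in only 1 other group, Ago2+/+ tunicamycin, with 2209, 935 and 1035 FPKM, and had at most 196 in the remaining groups.

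Dcun1d5 and Yap1 are near neighbours on chromosome 9. Loci expressed at a mean of at least 1 FPKM, zeros included with 0.01 FPKM added to both groups, were ordered along each chromosome, a step chosen after the values had been seen. Of 14 runs of 5 or more neighbouring loci on the same side of 2-fold, 13 were lower under tunicamycin and 1, on the Y chromosome, was higher. The longest run held 9 loci on chromosome 6 (144803500 to 145251849), all lower, with a median log2 ratio of -4.89. Its span includes Bcat1 (144993835 to 145076184). On chromosome 9 a run of 6 loci (6168584 to 7581885) held Pdgfd, Dync2h1 (65.9 and 2.66), Dcun1d5, Mmp13, Mmp8 and Mmp27, and after Tmem123 (34.5 and 53.5) another run of 6 (7818227 to 8134294) held Birc2 (33.7 and 16.2), Birc3 (22.9 and 9.29), Yap1 and Cep126 (122.5 and 2.88). The Hoxc genes formed a run of 6 on chromosome 15 (102966796 to 103158002) with Smug1 at its end, and Aim2 to Ifi202b a run of 5 on chromosome 1 (173331886 to 173982744). The cause of these runs was not tested.

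**Figure D5:**
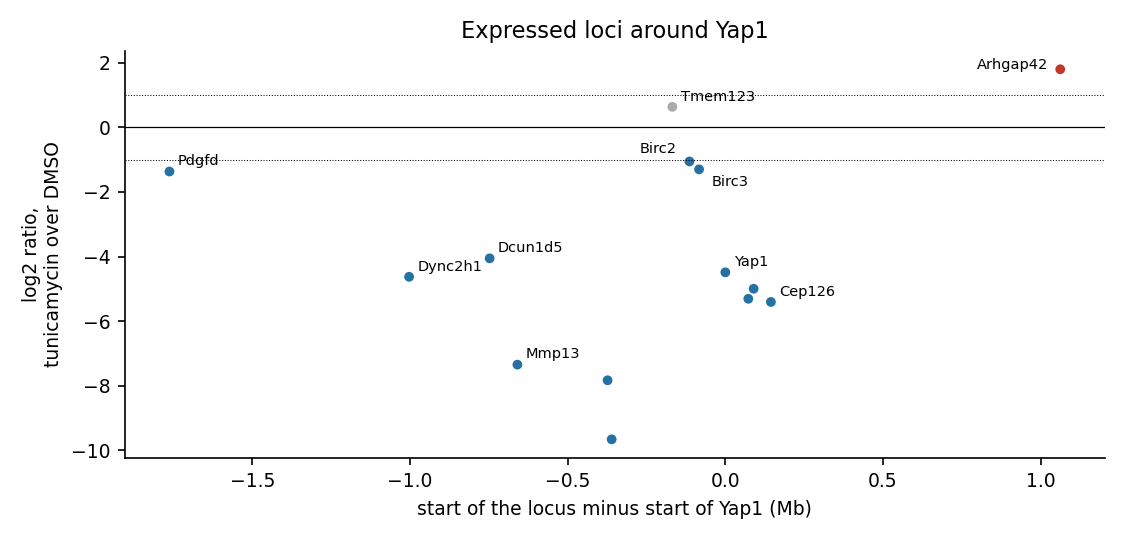
Log2 ratio of tunicamycin over DMSO (0.01 FPKM added) of expressed loci against the distance of their start from that of Yap1 in Mb; blue points are at least 2-fold lower, red at least 2-fold higher, grey neither. All loci but Tmem123 (grey) and Arhgap42 (red, 3.31 and 11.5 FPKM) lie below the lower dotted line.

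Whole chromosomes were shifted slightly as well. The median log2 ratio was -0.42 over 675 loci of chromosome 1 and -0.41 over 966 of chromosome 2, and 0.36 over 352 loci of chromosome 16 and 0.38 over 571 of chromosome 10. With ratios centred on each chromosome's median, 26 genes of the lists lost their call, 11 of them higher and 15 lower, and 9 others gained one. Among those named above that lost it were Eif2ak3, Atf6, Edem1, Os9, Pgm3, Sar1a, Sec61a1, Cebpb, Phgdh, Dars, Wars, Bcl2l11, Tpm1, Sesn1, Fos, Klf6, Psap, Hspd1 and Hspe1, all with a ratio under 3-fold. On chromosome 10 20.5% of loci were higher and 5.08% lower, and on chromosome 1 8.0% and 20.4%. By kind of gene, 9728 protein-coding loci had 12.4% higher and 9.31% lower, whereas 317 long noncoding loci had 10.1% higher and 34.4% lower. Of 50 small noncoding loci 1 was higher and 26 were lower, and of 899 pseudogenes 6.90% were higher and 12.8% lower.

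The tunicamycin comparison of the cells labelled Ago2+/+ shares no library with this one, and its called genes went largely the other way. However, its tunicamycin group lay within 2-fold of Ago2-/- DMSO at 92.2% of the loci called higher here and 96.2% of those called lower. Since these loci were called by their level in Ago2-/- DMSO, the opposite direction was partly set beforehand and is no separate result. The same holds for the Ago2+/+ counts of interferon effectors and NRF2 genes above. There 1047 of 11600 loci with a ratio were higher (9.03%) and 926 lower (7.98%). Of the loci called higher in Ago2-/- cells, 1049 had a ratio there, of which 71 were higher and 436 lower. Of those called lower, 1162 had one, of which 516 were higher and 47 lower. Of the genes in the lists, 140 were higher and 92 lower in Ago2-/- cells, each counted once. Of these, 18 were higher and 4 lower with tunicamycin under both genotype labels, and 45 and 45 went opposite ways. The 18 were Acta2, Bgn, Col12a1, Lox, Ltbp2, Thbs1, P4ha3, Serpinf1, Tgfb2, Tgfb3, Egfr, Pdgfrb, Osr1, Hoxb8, Hoxb9, Pmaip1, Nqo1 and Vldlr. All 18 had a lower level in Ago2+/+ DMSO than in Ago2-/- DMSO, and a response to tunicamycin common to both labels was not tested. Acta2 had 0.644 FPKM in Ago2+/+ DMSO and 1.75 in Ago2+/+ tunicamycin. Hoxb8, Hoxb9, Lox and Pmaip1 were at or below 0.031 in Ago2+/+ DMSO. The lists themselves hold many matrix and growth factor genes, so the kinds of gene among the 18 partly follow from the lists. Vldlr had 0.565 FPKM in Ago2+/+ DMSO and 3.68 in Ago2+/+ tunicamycin, and Serpinf1, a secreted inhibitor of vessel growth, 4.42 and 73.7, against 80.9 and 289 in Ago2-/- cells. The 4 lower under both labels were Ern1, Itgb7, Cdkn1a and Phlda2, with Ern1 at 42.8 and 18.4 FPKM in Ago2+/+ cells. The difference between genotypes was not tested, since each of the 4 groups is a single pooled value.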

How the data were processed

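RNA-seq libraries of mouse embryonic fibroblasts were compared as the authors deposited them. Per the labels' processing notes, reads were checked with FastQC 0.11.7 and handled with HISAT2 2.1.0, StringTie 1.3.4d and Cuffdiff 2.2.1 on GRCm38, with Ensembl 91 by the methods. The authors pooled the 3 libraries of each group into 1 FPKM value per locus, normalized by Cuffdiff; locus starts were raised by 1 to count from 1, since 31842 of 50130 loci of 1 annotated gene then matched both ends in GENCODE M21. The table's columns of fold changes, test statistics, p-values and q-values hold the authors' own comparisons and were not used. Low FPKM values showed no common step of single reads (2786 loci under 0.1 FPKM, 1.26% in the fullest 1% bin), so counts could not be recovered.

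With Python 3.11.15 (pandas 2.3.3, numpy 2.4.6, matplotlib 3.10.9), log2 ratios were taken without pseudocount where both groups were above 0 and their mean was at least 1 FPKM. Folds are not given where the lower group was below 0.1 FPKM. List members that share a locus were left out of counts, 731 loci with a ratio carry several gene names, and Cuffdiff marked 1 as failed. Genes were named from the lists and by the 15 largest ratios and 10 largest FPKM differences each way. The comparison, the members and the lists were chosen with earlier results of these data known. Alternatives were a pseudocount, other filters and folds, and other scalings. Values of some listed genes are not reported here.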

Additional observations from a re-analysis of the deposited data

How the results depend on the processing

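The 2-fold counts moved by more than 1.5 times under 4 settings. With no filter on low values 3050 loci were higher and 3396 lower, with a mean of at least 5 FPKM 741 and 736, at 1.5-fold 2506 and 2341, and at 4-fold 596 and 453. A pseudocount of 1 FPKM gave 1109 and 962, upper quartile scaling 1311 and 1277, loci with 1 gene name alone 1303 and 1159, and loci at 0 counted as called 1437 and 1300. Centring each chromosome on its own median, added after seeing the data, gave 1287 and 1131, and turned the median sign of 6 of 52 lists (amino acid supply, caveolae, Hox, imprinted, sterol synthesis and UPR sensors). Without a filter 4 list medians changed sign. That of the insulin-like growth factor axis went from -1.15 to 0.11, of integrins and laminins from -0.27 to 0.42, and of the macrophage markers from 0.12 to -0.24. The epithelial median, which rests on 1 gene with the filter, went from 4.89 to -0.79. The loci added in this setting all had a mean below 1 FPKM. With a mean of at least 5 FPKM the neural median went from -0.40 to 5.30 and that of amino acid supply from 0.01 to -0.002. With loci at 0 counted the Hox median went from 0.13 to -0.32 and that of imprinted genes from -0.24 to 0.22. Upper quartile scaling turned that of amino acid supply to -0.02. The direction of the larger count turned for integrins and laminins (4 higher and 5 lower to 11 and 7), for PDGF and FGF genes (2 and 4 to 5 and 4) and for cartilage and bone markers (0 and 1 to 3 and 1) without the filter, and at 4-fold for PDGF and FGF genes (1 and 0), chemokines and cytokines (3 and 2) and glycolysis (1 and 0). With loci at 0 counted, Hox genes went from 3 higher and 2 lower to 3 and 5. Amino acid supply genes went from 1 higher and 2 lower to 3 and 2 at 1.5-fold, and to 1 and 0 with chromosome centring. No paired analysis was possible because each group is 1 pooled value, and leaving out a replicate could not be run for the same reason. Counting error and the spread between libraries cannot be read from the deposited values.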
